A study of Mus musculus with 12 samples.

Results

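The 10 genes described here are the immediate-early genes Fos, Fosb, Jun, Junb, Egr1, Ier2, Nr4a1, Zfp36, Dusp1 and Atf3, taken as a list of AP-1, EGR and early feedback genes and matched by symbol to the 55536 genes of the count table. All 10 matched and all 10 passed the filter on low counts, which 20263 genes passed. They were measured in MKs sorted from the bone marrow (BM) and spleen of Pf4-iCre x Rosa26 loxP-tdTomato mice on C57BL/6, young adults of both sexes, so that every group, controls included, carried the same Cre and reporter. In these mice the Pf4 promoter drives Cre, and tdTomato therefore marks cells that express it and cells descended from them. Mice received saline, or a nonlethal intraperitoneal dose of cecal slurry (CS) as a model of sepsis, and were taken at day 5. Sorted cells were CD45+, tdTomato+, CD41+ and CD42b+ and lacked the lineage markers NK1.1, CD3, CD11b, F4/80 and B220. Tissue and treatment thus give 4 groups, called BM saline and BM sepsis for BM and spleen saline and spleen sepsis for spleen, with 3 independent replicates and 300 sorted cells per library. BM was flushed from bones and spleens were crushed on a filter, so tissue and preparation cannot be told apart in these data.

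Immediate-early genes are transcribed within minutes of a stimulus from transcription factors that are already in the cell, and most of their mRNAs are short-lived. FOS and JUN proteins pair into the AP-1 transcription factor, EGR1 and NR4A1 are further early transcription factors, and products such as ZFP36 and DUSP1 feed back to end the response. The same genes are also known to be induced in many tissues while cells are isolated.

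Upstream DNA is shown for 4 of the 10 genes, with matches to known early-response and core promoter motifs in capitals. The stretches begin 150 bases before the start of transcription given by RefSeq (GRCm38.p6), are written 5′ to 3′ on the strand of the gene, and stop before any exon annotated there. Fos is at chr12:85473740-85473889 (+), Fosb at chr7:19310052-19310195 (-), Junb at chr8:84978749-84978898 (-) and Dusp1 at chr17:26508520-26508622 (-).
Fos: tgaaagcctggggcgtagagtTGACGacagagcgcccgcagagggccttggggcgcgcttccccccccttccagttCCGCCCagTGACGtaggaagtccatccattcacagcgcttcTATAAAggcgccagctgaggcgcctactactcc
Fosb: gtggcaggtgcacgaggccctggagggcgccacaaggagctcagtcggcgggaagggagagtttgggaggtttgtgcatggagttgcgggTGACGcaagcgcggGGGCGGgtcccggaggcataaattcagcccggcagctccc
Junb: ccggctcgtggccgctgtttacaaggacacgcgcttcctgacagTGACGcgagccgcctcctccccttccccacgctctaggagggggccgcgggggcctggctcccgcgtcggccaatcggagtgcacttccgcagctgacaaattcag
Dusp1: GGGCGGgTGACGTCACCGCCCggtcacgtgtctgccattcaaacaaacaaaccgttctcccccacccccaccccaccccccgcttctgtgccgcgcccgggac
The motifs searched on both strands were the CArG box, which binds serum response factor, the cAMP response element (CRE) TGACGTCA, its shorter form TGACG, the AP-1 site TGANTCA, the GC box GGGCGG and the TATA box TATAAA. A full CRE also counts as a match of its shorter form. Of the 10 genes, 8 had a window of 250 bases before to 50 after the start in the RefSeq table, and the windows of Egr1 and Ier2 were not used here. The short CRE form was in 6 of the 8 (Fos, Fosb, Junb, Nr4a1, Dusp1 and Atf3), against 20.8% of 32851 windows of the same length. Dusp1 held the full CRE at -143 to -136, which 1.79% of windows hold. Zfp36 held the CArG box CCATAAAAGG at -58 to -49, in a stretch that GENCODE annotates as exon of a longer Zfp36 transcript, and 1.63% of windows hold a CArG box. Fos held a TATA box at -33 to -28 and Junb held the same letters at 1 to 6, against 13.6% of windows. The GC box was in 7 of the 8, against 35.7% of windows, and the AP-1 site was in 0 of the 8, against 7.81%. These are matches of letters, and factor binding was not measured. G and C made up 58.7% to 72.3% of the windows of the 8 genes other than Zfp36, against a median of 52.7% over all windows. The part of this composition in the matches of the GC box and of TGACG was not tested.

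Total counts were 7756762 to 27386184 per library. A count of 0 allows up to 3 counts, which is 0.105 to 0.406 CPM (counts per 1000000 counts on the genes tested, scaled with TMM factors, the scale of all levels below). Libraries of both tissues held RNA of other lineages. The summed level of 12 MK and platelet markers was 11770 to 47660 CPM in BM and 1225 to 3528 in spleen, with all 12 detected in each group. The 8 B cell markers summed to 55.4 to 262 CPM in BM and 2759 to 9690 in spleen, and the 8 plasma cell markers to 1485 to 4697 in BM and 7761 to 80830 in spleen, with none of these at 0 throughout a group. The 6 basophil and mast cell markers summed to 2687 to 28670 CPM in BM and 40.6 to 4409 in spleen, and the 8 neutrophil markers to 92.2 to 16060 in BM and 65.5 to 18430 in spleen. Immunoglobulin and T cell receptor segments took 1.04% to 4.23% of counts in BM and 13.0% to 30.1% in spleen. Replicate 3 of spleen sepsis stood apart from the other two libraries of its group, with the lowest segment share in spleen (13.0%), the lowest B cell sum of that group (2829 CPM against 9690 and 8530) and the highest sum over the 10 genes (2083 CPM against 641 and 652). That library also had the highest MK and platelet sum of the group (2342 CPM against 1747 and 1225).

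Of the 10 genes, 5 were more abundant in the libraries of splenic MKs than in those of BM MKs. Fos, Fosb, Junb, Egr1 and Zfp36 were called lower in BM in the comparison of all 12 libraries (adjusted p under 0.05), by 2.91-fold for Junb to 7.57-fold for Egr1, and none of the 10 was called higher in BM. Of all genes tested, 2.68% were called lower in BM and 2.07% higher. The call of Junb did not hold in fits without any 1 library, which also tested more genes. For the treatments apart, 0 of the 10 were called after saline and 1, Fos, after sepsis. The shares of all genes called lower in BM were 0.725% and 1.18%. The summed level of the 10 genes was 223 to 530 CPM in BM saline and 246 to 285 in BM sepsis, against 1236 to 2145 in spleen saline and 641 to 2083 in spleen sepsis. In bulk libraries, fewer cells of a type and less RNA per cell cannot be told apart.

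**Figure D1:**
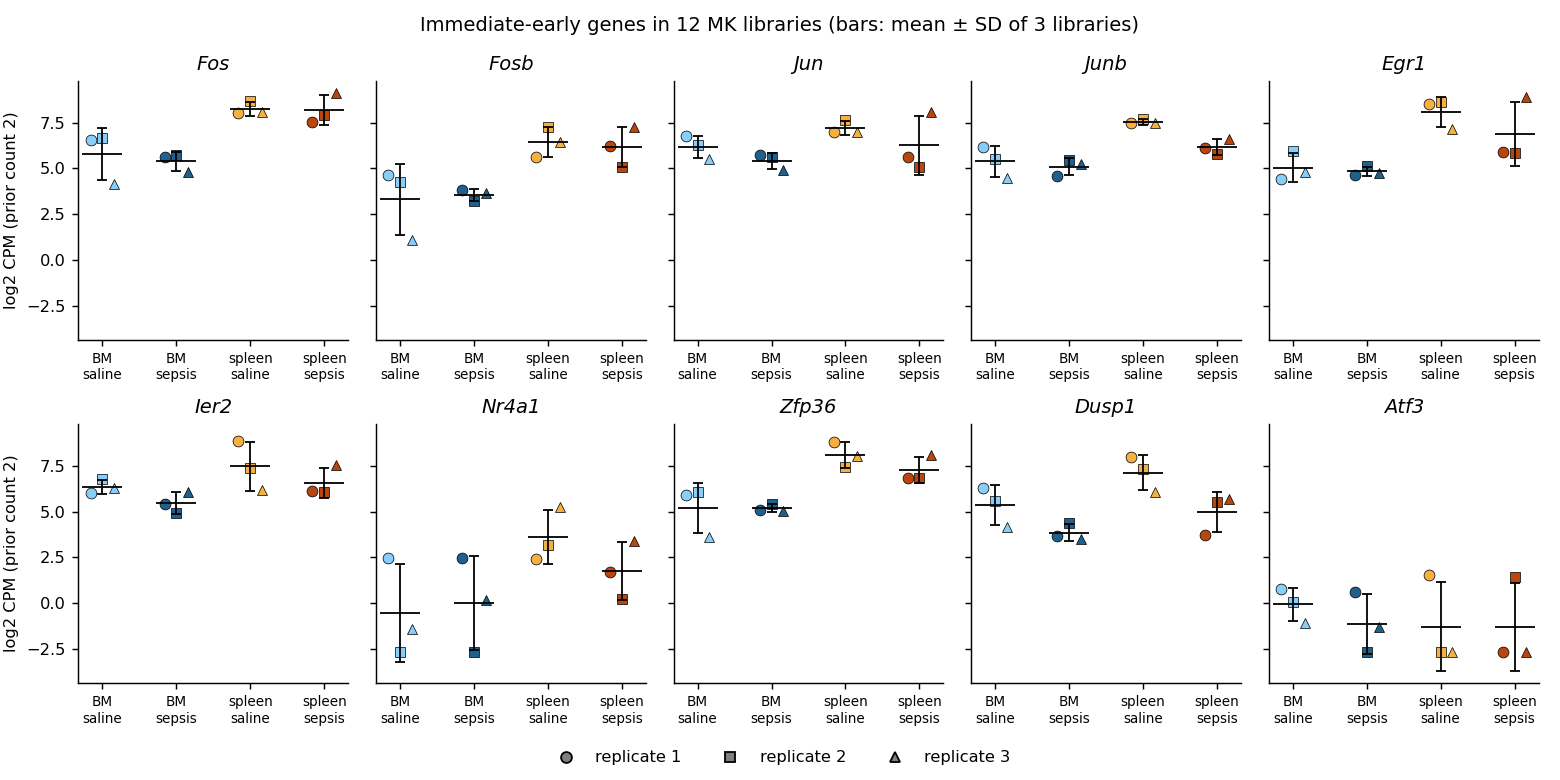
Level of each of the 10 genes in each library as log2 CPM (prior count 2), by group, with replicates as symbols and the mean ± SD of 3 libraries as bars. Every spleen library lies above every BM library for Fos, Fosb and Zfp36, and Nr4a1 and Atf3 have libraries at 0 counts, drawn at the bottom.

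Of the AP-1 genes, Fos gave the most separate groups. Fos, the founding member of the FOS family, was at 95.0, 102 and 17.4 CPM in BM saline and 48.3, 53.5 and 27.6 in BM sepsis. It was at 259, 411 and 268 CPM in spleen saline and 186, 241 and 561 in spleen sepsis. All 6 spleen libraries were above all 6 BM libraries. The log2 fold change of BM over spleen was -2.13 after saline (SE 0.65, adjusted p = 0.146), -2.93 after sepsis (SE 0.67, adjusted p = 0.0257) and -2.53 (SE 0.47, adjusted p = 0.00233) for the mean of both, in edgeR's quasi-likelihood test adjusted over 20263 genes. The call after sepsis was lost with library size alone as the scale (adjusted p = 0.0793) and without replicate 1 of BM sepsis (0.0594), replicate 3 of BM sepsis (0.112) or replicate 3 of spleen sepsis (0.0521). Fosb, a close relative of Fos, was lower than Fos per kilobase of exon in every library and showed a difference between tissues as well. It was at 24.6, 18.7 and 1.94 CPM in BM saline, 13.8, 9.10 and 12.3 in BM sepsis, 50, 154 and 85.8 in spleen saline, and 74.5, 33.7 and 154 in spleen sepsis. Again the 6 spleen libraries were all above the 6 from BM. The mean log2 fold change was -2.79 (SE 0.61, adjusted p = 0.0093), and neither treatment alone gave a call (adjusted p = 0.178 after saline and 0.122 after sepsis).

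The JUN genes were less separate. Junb, which pairs with FOS proteins but activates less strongly than JUN, was at 72.3, 45.6 and 22.2 CPM in BM saline, 23.8, 44.0 and 37.7 in BM sepsis, 176, 208 and 175 in spleen saline, and 70.1, 54.5 and 99.1 in spleen sepsis. The spleen saline libraries were close together (186 ± 18.9 CPM, SD, n = 3), and spleen exceeded BM in every library within each treatment but not across treatments. The mean log2 fold change was -1.54 (SE 0.42, adjusted p = 0.0368). That call did not hold when any 1 of the 12 libraries was left out (adjusted p 0.0626 to 0.218), with library size alone (0.170), without the expression filter (0.169) or with the replicate number as a block (0.0621). Fits without 1 library also tested more genes (23354 to 26112 in place of 20263). Their loss of the call therefore cannot be set down to the library alone. Jun, the founding member of its family, was at 107, 76.7 and 46.2 CPM in BM saline, 52.6, 49.2 and 29.9 in BM sepsis, 127, 199 and 126 in spleen saline, and 48.6, 33.8 and 271 in spleen sepsis. The spleen saline libraries were all above those of BM saline, but after sepsis only replicate 3 of spleen was above BM. Jun was not called, with a mean log2 fold change of -1.20 (95% interval -2.24 to -0.16, adjusted p = 0.190). Exons of an antisense gene, Junos, cover 7.28% of the exon bases of Jun, and exons of Prdx2 cover 7.52% of those of Junb. The library kit does not mark strand, so reads in these stretches cannot be assigned to one gene.

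Egr1, a zinc finger transcription factor, was called, with a fold that depended on 1 library. It was at 21.3, 60.6 and 27.6 CPM in BM saline and 24.8, 34.9 and 26.5 in BM sepsis, against 362, 402 and 142 in spleen saline and 59.3, 56.9 and 481 in spleen sepsis. Spleen was above BM in every library within each treatment. In spleen sepsis, however, replicates 1 and 2 were near the highest BM saline library, and replicate 3 was far above them. The log2 fold change was -3.05 after saline (SE 0.79, adjusted p = 0.0694), -2.79 after sepsis (SE 0.78, adjusted p = 0.0880) and -2.92 (SE 0.56, adjusted p = 0.00311) for the mean. Without replicate 3 of spleen sepsis it was -0.996 after sepsis (adjusted p = 0.545) and -1.995 for the mean, where Egr1 was still called. Nr4a1, an orphan nuclear receptor, was low throughout. Its counts were 62, 0 and 2 in BM saline, 81, 0 and 28 in BM sepsis, 38, 109 and 356 in spleen saline, and 60, 9 and 106 in spleen sepsis, and the groups overlapped in each comparison. Its mean log2 fold change of -2.21 had a 95% interval of -5.20 to 0.78 (adjusted p = 0.408). Atf3, a stress-induced member of the ATF/CREB family, was near the detection limit. Its counts were 18, 9 and 3 in BM saline, 21, 0 and 7 in BM sepsis, 20, 0 and 0 in spleen saline, and 0, 23 and 0 in spleen sepsis. With 5 of the 12 libraries at 0, no fold is given for Atf3.

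Of the early feedback genes, Zfp36 differed between tissues. It lies at chr7:28376784-28380253 (-) in GRCm38 and encodes tristetraprolin, which binds AU-rich mRNAs and promotes their decay. It was at 58.9, 67.8 and 12.2 CPM in BM saline, 34.2, 43.0 and 32.7 in BM sepsis, 450, 173 and 262 in spleen saline, and 116, 115 and 270 in spleen sepsis. The 6 spleen libraries were all above the 6 BM libraries. For Zfp36 the log2 fold change was -2.67 after saline (SE 0.67, adjusted p = 0.0576), -2.19 after sepsis (SE 0.66, adjusted p = 0.122) and -2.43 for the mean (SE 0.47, adjusted p = 0.0034). Dusp1, a phosphatase that inactivates p38 and JNK kinases, was at 78.9, 47.2 and 17.9 CPM in BM saline, 12.7, 20.7 and 11.0 in BM sepsis, 252, 163 and 66.8 in spleen saline, and 13.1, 45.9 and 52.1 in spleen sepsis. Tissues overlapped within both treatments, and the mean log2 fold change of -1.53 (95% interval -2.62 to -0.45) was not called (adjusted p = 0.106). Ier2, a nuclear protein of the early response, was at 64.0, 110 and 76.9 CPM in BM saline, 42.4, 30.3 and 67.1 in BM sepsis, 462, 166 and 71.7 in spleen saline, and 70.3, 67.8 and 185 in spleen sepsis. Its mean log2 fold change was -1.34 (95% interval -2.34 to -0.35, adjusted p = 0.119).

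Among the 10 genes, 5 were called lower in BM for the mean of both treatments, where 2.68% of all genes tested were called in that direction and 2.07% in the other. These shares depend on the scale, since library size alone gave 1091 genes called higher and 424 called lower in BM in place of 419 and 543. For the 2 treatments apart it gave 262 and 114 after saline in place of 106 and 147, and 214 and 166 after sepsis in place of 121 and 240, and RLE factors gave 79 and 182 after saline. After saline 0 of the 10 were called, although 7 had an unadjusted p under 0.05, and the shares of all genes called were 0.725% lower and 0.523% higher in BM. DESeq2 called 5 of the 10 after saline, with 805 of all 20263 genes called lower in BM and 508 higher, and limma-voom called 2, with 141 lower and 44 higher. After sepsis 1 of the 10, Fos, was called lower in BM, against 1.18% of all genes lower and 0.597% higher. The median log2 fold change of the 10 genes was -2.06 after saline, -1.38 after sepsis and -1.88 for the mean, and that of all genes tested was -0.28, -0.18 and -0.13. The median after sepsis was -2.37 without replicate 1 of BM sepsis, -0.98 without replicate 3 of spleen sepsis and -1.02 with library size alone. The 3 spleen saline libraries were all above the 3 BM saline libraries for 6 of the 10 genes (Fos, Fosb, Jun, Junb, Egr1 and Zfp36), against 7.00% of genes tested. After sepsis this held for 6 of the 10 (Fos, Fosb, Junb, Egr1, Ier2 and Zfp36), against 7.02%. All 6 spleen libraries were above all 6 BM libraries for 3 of the 10, against 1.87% of genes tested. Fos, Fosb, Egr1 and Zfp36 were called for the mean in each of the 21 alternative analyses, with the largest adjusted p at 0.0107, 0.0265, 0.0101 and 0.0155 in that order.

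**Figure D2:**
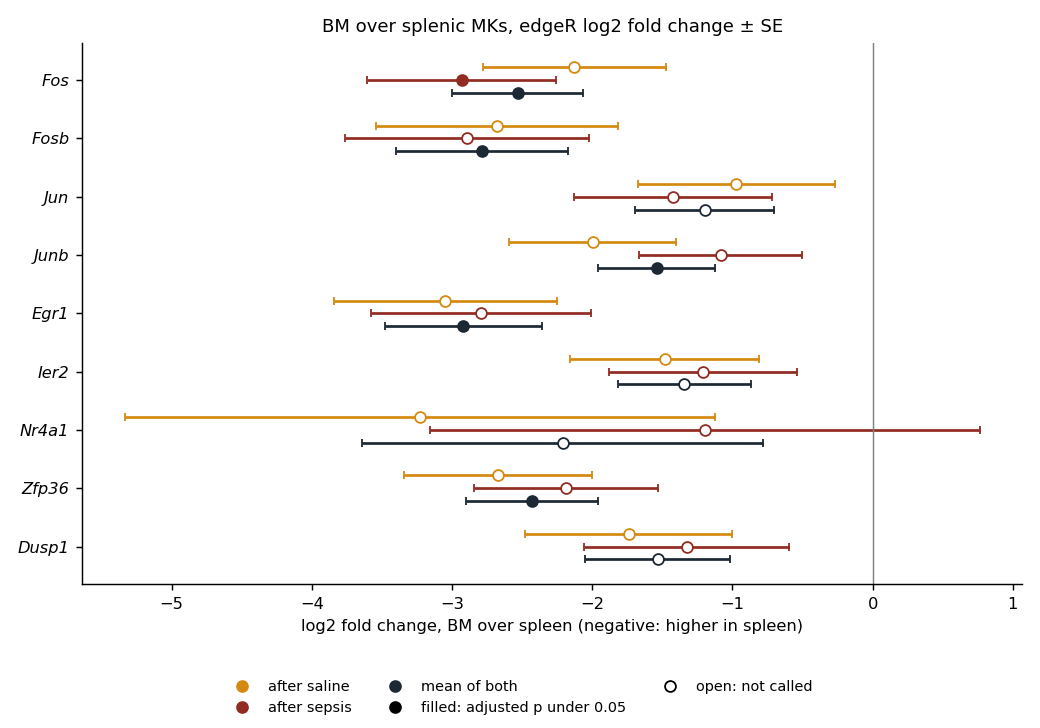
Log2 fold change of BM over spleen (x axis, negative where spleen was higher) for 9 of the 10 genes after saline, after sepsis and for the mean of both, with bars of 1 SE and filled points where the adjusted p was under 0.05. Atf3 is left out because several of its libraries were at 0, and all filled points lie below 0.

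The question of the treatment comparison is whether MKs changed 5 days after CS. None of the 10 genes was called between sepsis and saline in BM or in spleen. In BM, edgeR called 0 genes of any kind (0% of those tested, 717 with an unadjusted p under 0.05), and the 10 genes had a median log2 fold change of sepsis over saline of -0.57, against -0.08 for all genes. In spleen, 0.158% of genes were called, 12 higher and 20 lower after sepsis (8 and 22 with RLE factors), and the median of the 10 was -0.71, against -0.08. That median was -1.63 without replicate 3 of spleen sepsis and -0.39 without replicate 1 of either spleen group, and in BM it was -0.87 without replicate 3, -0.38 without replicate 2 and -0.31 without replicate 1 of BM saline. Dusp1 had the lowest log2 fold change of the 10 in both tissues, with a value of -1.70 (SE 0.74, unadjusted p = 0.0328, adjusted p = 1) in BM and -2.12 (SE 0.75, unadjusted p = 0.0107, adjusted p = 0.382) in spleen. In DESeq2, which called 995 of all genes in spleen, the value of Dusp1 there had an adjusted p of 0.0478. Without replicate 1 of BM saline the BM value of Dusp1 was -1.13, and without replicate 1 of spleen saline the spleen value was -1.55. The 3 spleen sepsis libraries were all below the 3 spleen saline libraries for 2 of the 10 genes, Dusp1 and Junb, against 4.51% of genes tested. In BM this held for 0 of the 10, against 4.16%.

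For Junb in spleen the log2 fold change was -1.32 (SE 0.59, adjusted p = 0.382), and in BM it was -0.41. Ier2 gave -0.84 in BM and -1.12 in spleen, Zfp36 gave -0.34 and -0.82, and Egr1 gave -0.34 and -0.60, none with a call. Fos gave -0.73 in BM and 0.07 in spleen. Without replicate 3 of spleen sepsis the spleen values were -2.33 for Egr1, -1.72 for Ier2, -1.32 for Zfp36 and -0.51 for Fos, and without replicate 1 of spleen saline they were -0.07 for Ier2 and -0.34 for Zfp36. These spleen values rest on groups that differed within themselves. Egr1 and Jun were at 481 and 271 CPM in replicate 3 of spleen sepsis, against 59.3 and 56.9 CPM for Egr1 and 48.6 and 33.8 CPM for Jun in the other libraries of that group. Marker levels moved with treatment too. The 8 neutrophil markers summed to 92.2 to 271 CPM in BM saline and 2240 to 16060 in BM sepsis, with none at 0 throughout either group. In spleen the 8 plasma cell markers summed to 46740 to 80830 CPM after saline and 7761 to 35670 after sepsis, and the 6 basophil and mast cell markers to 2657 to 4409 and 40.6 to 678. Their part in the treatment values was not tested.

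**Figure D3:**
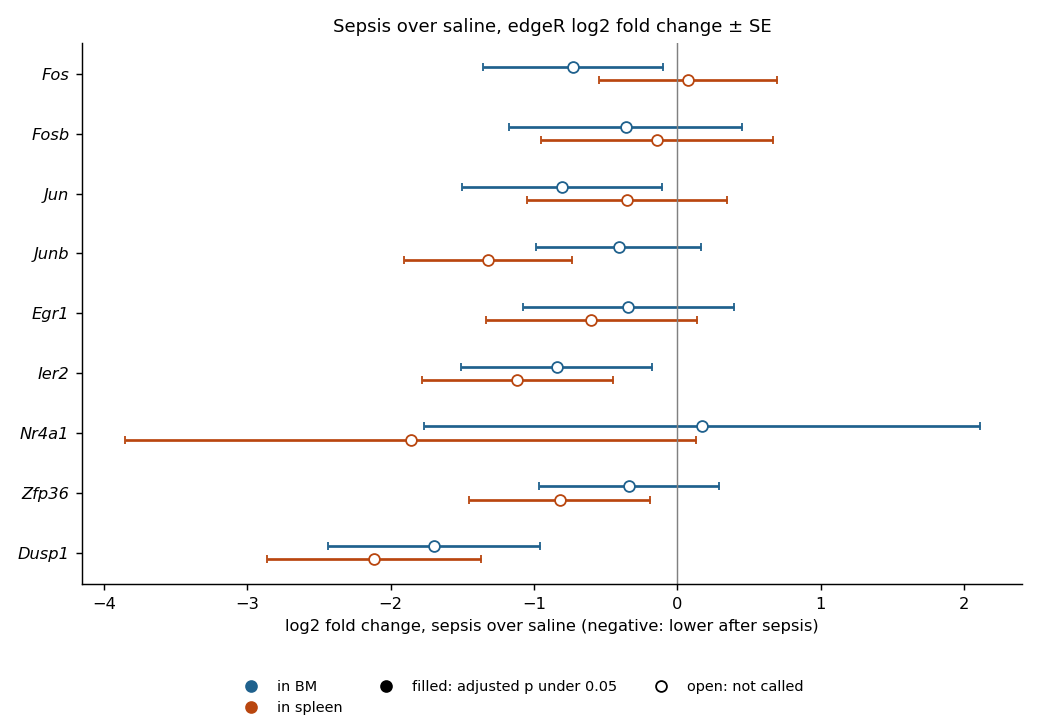
Log2 fold change of sepsis over saline (x axis, negative where lower after sepsis) in BM and in spleen for 9 of the 10 genes, with bars of 1 SE. All points are open because no adjusted p was under 0.05, and Dusp1 lies at -1.70 and -2.12.

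The tissue difference was not shown to change with sepsis for any of the 10 genes. In the interaction test, 0 of the 10 were called, as were 0% of all genes tested (1556 with an unadjusted p under 0.05), and DESeq2 (495 of all genes called) and limma-voom (0 called) called none of the 10 either. The interaction ranged from -0.80 for Fos to 2.03 for Nr4a1 on the log2 scale, and the smallest adjusted p among the 10 was 0.813. The intervals were wide. That of Fos ran from -2.65 to 1.05, so a several-fold change in its tissue difference is within the error.

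Compared per kilobase of exon, Ier2 and Fos were the highest and Nr4a1 and Atf3 the lowest of the 10 genes in each group, and the genes between them changed places. Ier2 was the most abundant in BM saline (54.9 ± 15.5 CPM per kb, SD, n = 3), BM sepsis (30.6 ± 12.3) and spleen saline (153 ± 134). Fos was second in these groups (30.4 ± 20.0, 18.4 ± 5.81 and 133 ± 36.4) and first in spleen sepsis (140 ± 86.0), where Ier2 was at 70.7 ± 43.9. Fosb was at 1.88 to 15.5 CPM per kb, and Nr4a1 and Atf3 were at 0.25 to 4.97. Most neighbours in this order did not differ beyond their SDs. The exceptions were Zfp36 over Egr1, Dusp1 over Fosb and Fosb over Nr4a1 in BM sepsis, Jun over Fosb in spleen saline, and Dusp1 over Nr4a1 in spleen sepsis. The share of Fos and Fosb in the sum of Fos, Fosb, Jun and Junb, also per kb, was 24.3% to 51.4% in the 6 BM libraries, 50.5% to 56.6% in spleen saline and 66.6% to 75.9% in spleen sepsis. This share was highest in spleen sepsis in all 3 of its libraries, and it was computed after the levels had been seen.

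Genes around the response were taken from 5 further lists. Of 10 early transcription factors of the EGR, NR4A, KLF and MYC families, all tested, 4 were called lower in BM for the mean of both treatments and 0 higher, with a list median of -1.82. Of all genes tested, 2.68% were called lower and 2.07% higher, with a median of -0.13. Klf2, a Krüppel-like factor of quiescent lymphocytes and endothelium, was at 1.93 to 15.1 CPM in the 6 BM libraries and 169 to 273 in the 6 spleen libraries. The log2 fold change of Klf2 was -4.74 after saline (SE 0.78, adjusted p = 0.00348). After sepsis the value was -5.00 (SE 0.79, adjusted p = 0.00176). Klf6, another Krüppel-like factor, had a mean log2 fold change of -1.84 (SE 0.45, adjusted p = 0.0192), and Csrnp1, a nuclear factor induced by AXIN1, had -3.73 (SE 0.81, adjusted p = 0.00869). Egr3, a relative of Egr1, was at 0 to 0.26 CPM in BM and at 0.14 to 59.6 in spleen (adjusted p = 0.00537), so its groups overlapped.

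Of 15 early feedback genes, all tested, 7 were called lower in BM for the mean and 0 higher, with a list median of -1.94. The shares of all genes tested were 2.68% lower and 2.07% higher. They were Btg1 (log2 fold change -3.13, SE 0.39, adjusted p = 4.9e-05) and Btg2 (-1.85, SE 0.49, 0.0317), both antiproliferative genes, Nfkbia, the NF-kB inhibitor (-2.14, SE 0.38, 0.00166), Ier5 (-2.59, SE 0.41, 0.00061), Zfp36l1, a relative of Zfp36 (-2.18, SE 0.42, 0.00325), the phosphatase gene Dusp2 (-2.73, SE 0.66, 0.0186) and the pseudokinase gene Trib1 (-4.14, SE 0.96, 0.0140). Btg1 was at 35.6 to 125 CPM in BM and 237 to 841 in spleen, so no library of one tissue reached the other. After saline 4 of the list (Nfkbia, Zfp36l1, Btg1 and Ier5) were called and after sepsis 1 (Btg1), all lower in BM. Of all genes tested, 0.725% were called lower in BM after saline and 1.18% after sepsis.

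The other lists showed no call in any comparison. Of 10 AP-1 and ATF relatives, 8 were tested and their median was -0.07 for the mean of both treatments. The most abundant were Atf4, a factor of the integrated stress response (-0.09, adjusted p = 0.945), and Jund, the remaining JUN gene (-1.90, adjusted p = 0.107). The 13 upstream regulators, all tested, had a median of 0.01, and among the most abundant was Mapk14, which encodes the p38 alpha kinase (0.99, adjusted p = 0.125). Of 15 stress and heat shock genes, 13 were tested and had a median of 0.03. The chaperone genes Hspa8 (0.56, adjusted p = 0.354) and Hspe1 (0.97, adjusted p = 0.127) were the most abundant of these. No gene of the 5 lists was called between treatments or in the interaction.

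**Figure D4:**
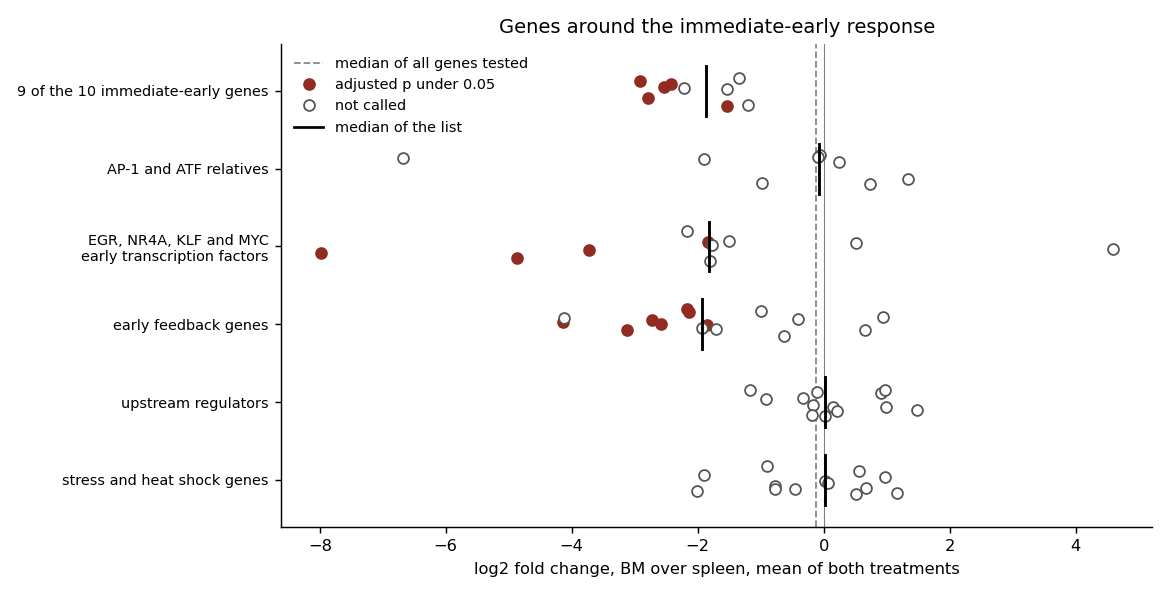
Log2 fold change of BM over spleen, mean of both treatments (x axis), for each tested gene of the 6 lists (rows), with filled points where the adjusted p was under 0.05, a black line at each list's median and a dashed line at the median of all genes tested (-0.13). In the first row Atf3 is not drawn but is counted in the median, and filled points occur in the rows of the 10 genes, the early transcription factors and the early feedback genes, all below 0.

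Several of the 10 genes went together across libraries. Over the 12 libraries, which share their tissue and treatment groups, the Pearson correlation of log2 CPM was 0.95 between Fos and Fosb and 0.93 between Fos and Zfp36, the closest pairs. The genes outside the lists that were most like the mean standardized level of the 10, among 8064 with a mean of at least 10 CPM, included Sgk1 (r = 0.94), Cacna1e (0.92), Satb1 (0.91), P2ry10 (0.91), Akap8l (0.90), Apoe (0.89), Igkv14-126 (0.88), Nfkbiz (0.88) and Fcer2a (0.87). Sgk1, a serum and glucocorticoid regulated kinase, was at 11.6 ± 7.19 CPM in BM saline, 5.54 ± 4.59 in BM sepsis, 74.2 ± 47.7 in spleen saline and 30.9 ± 26.2 in spleen sepsis. Fcer2a is also one of the 8 B cell markers, and Igkv14-126 is an immunoglobulin segment whose reads may be shared with close copies.

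Across tissues the levels of the 10 genes went with those of B cell, plasma cell and T cell markers, and within spleen the order of the libraries depended on the marker list and the treatment. In spleen saline the sum over the 10 genes was 2145, 1885 and 1236 CPM in replicates 1, 2 and 3. The plasma cell sums (80830, 51420 and 46740), the T cell sums (2147, 1030 and 171) and the NK cell sums (1872, 1161 and 286) had the same order there, whereas the B cell sums were 3850, 2759 and 6601. The neutrophil sums (18430, 415 and 260) also had that order. The sums of MK and platelet markers (1350, 1356 and 3528) ran the other way, as did those of monocyte and macrophage and of erythroid markers. In spleen sepsis the 10 genes summed to 641, 652 and 2083 CPM, and the sums of the plasma cell (35670, 30900 and 7761), T cell (594, 422 and 130), NK cell (228, 138 and 64.2) and B cell markers (9690, 8530 and 2829) all ran the other way. So did the monocyte and macrophage sums (565, 547 and 123). Replicate 3 was highest there for MK and platelet (1747, 1225 and 2342) and basophil and mast cell markers (87.4, 40.6 and 678). The erythroid sums (32.6, 53.8 and 66.5) had the order of the 10 genes, and the neutrophil sums (9265, 65.5 and 179) were highest in replicate 1. In BM the T cell markers summed to 7.65 to 112 CPM. The part of these cell types in the tissue difference was not tested. With immunoglobulin and T cell receptor segments removed from the table, the same number of the 10 genes, 5, was called for the mean of both treatments. That step leaves all other RNA of these cells in the table, so it does not test their part. Of all genes, 490 were called lower in BM and 422 higher with the segments removed.

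**Figure D5:**
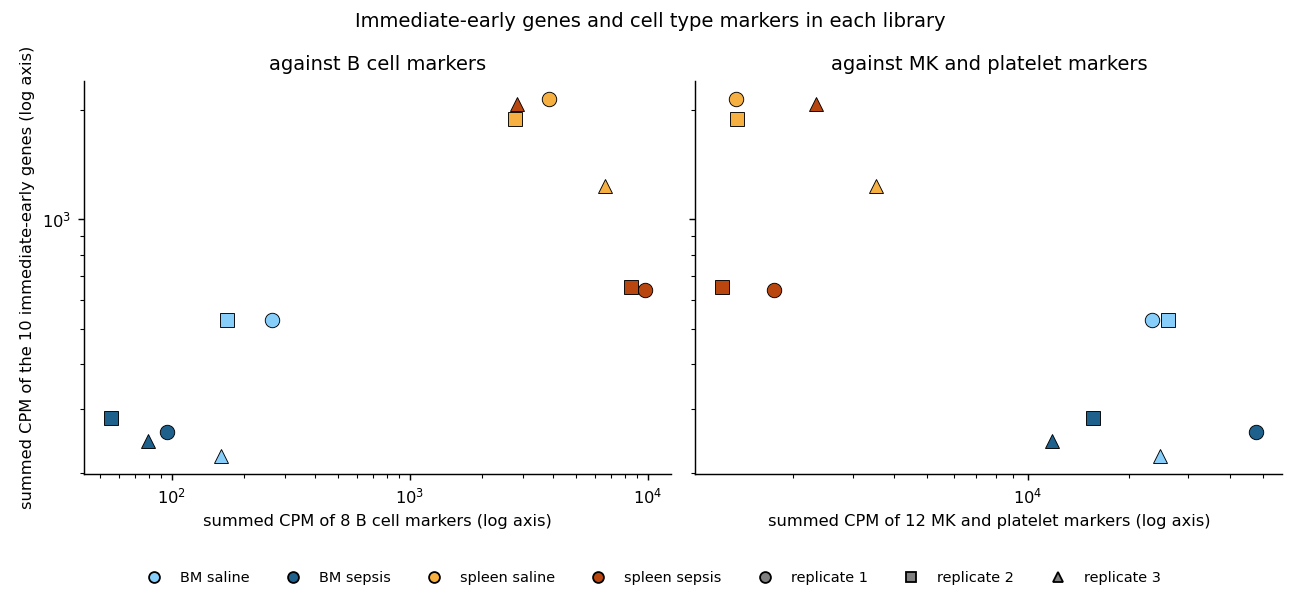
Summed CPM of the 10 genes in each library (y axis) against the summed CPM of 8 B cell markers (left) and of 12 MK and platelet markers (right), all on log axes, with groups as colors and replicates as symbols. The spleen libraries lie at high B cell and low MK sums, and within spleen sepsis the library with the highest sum over the 10 genes (2083 CPM) has the lowest B cell sum (2829 CPM).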

How the data were processed

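RNA of 12 libraries of 300 sorted MKs each was amplified with the SMART-Seq HT kit and made into libraries with Nextera XT. The deposited table holds the count of reads per gene, as whole numbers and without normalization by the authors. Per the labels, the submitters' processing notes name GRCm38, STAR 2.7.2b, R 3.6.1 and DESeq2 1.26, with no role given, while strand setting, annotation and counting options were not given in the sources used here. Gene positions and exon lengths were taken from GENCODE M21, which holds all 55536 identifiers.

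The main test was run with edgeR 4.0.16 in R 4.3.3: filterByExpr (minimum count 10), TMM factors, 1 mean per group over all 12 libraries and the quasi-likelihood F test (8 residual and 11.1 prior degrees of freedom). P values were adjusted by Benjamini-Hochberg over 20263 genes and called under 0.05. An SE was obtained as the absolute log2 fold change over the root of its F statistic. Log2 CPM used a prior count of 2. The procedure was also run on simulated data with changes larger than most of those of the 10 genes. That run does not show how often changes of their size are called. Total counts of 7756762 to 27386184 leave counting error small beside the spread between libraries (common dispersion 2.05, a coefficient of variation of 143%), and limits from a count of 0 cover counting error only. The study gives its replicates as 3 mice. P values measure the spread between libraries, which holds that between mice together with that of sorting and amplification. Whether BM and spleen libraries came from the same mice is not given in the labels.

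The genes, the 5 pathway lists, the marker lists and the tests were chosen with earlier results of these data known. Named beyond the 10 genes were list genes called in any comparison, otherwise the most abundant 2 of each list, and the 10 genes most like the members, of which some are not reported here. Of the AP-1 and ATF list, Ddit3 matched more than 1 identifier and was left out. Alternatives used RLE factors, library size alone, no or a stricter filter (10 counts in at least 6 libraries), DESeq2 1.42.0, limma-voom with quality weights (limma 3.58.1), the compared groups alone, a block for the replicate number, a table without immunoglobulin and T cell receptor segments, thinning to the lowest total, and leaving out each library. Each fit without 1 library reran the filter and tested 23354 to 26112 genes in place of 20263. In a changed call, the missing library and the larger set of genes therefore cannot be told apart. Python 3.11.15 with pandas 2.3.3 and matplotlib 3.10.9 served for tables and plots.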

Additional observations from a re-analysis of the deposited data

How the results depend on the processing

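For the mean of both treatments, 4 to 7 of the 10 genes were called in every alternative (4 in each analysis that left out 1 library), and the 9 genes other than Atf3 stayed lower in BM in all of them. Of all genes, DESeq2 called 1614 lower in BM and 1001 higher for the mean, in place of 543 and 419. With 1 library left out, 472 to 604 were called lower. The count after saline, 0 in the report, became 1 with RLE factors, with the stricter filter, with the compared groups alone, with immunoglobulin and T cell receptor segments removed and with the replicate block, 2 without a filter and with limma-voom, and 5 with DESeq2, and it was 0 to 2 with 1 library left out. The settings named from RLE factors to the replicate block called 115 to 182 of all genes lower in BM after saline. The fit without a filter called 299 lower. The count after sepsis, 1 in the report, became 0 with library size alone, 2 without a filter and 4 with DESeq2, and it was 0 to 2 with 1 library left out. It fell to 0 without replicate 1 or 3 of BM sepsis or replicate 3 of spleen sepsis. Of all genes, DESeq2 called 872 lower in BM after sepsis and 607 higher, in place of 240 and 121. Without a filter 370 were called lower and 225 higher, and with 1 library left out 179 to 314 were called lower. In spleen, DESeq2 called 1 gene between treatments (Dusp1) where edgeR called 0, and no alternative called any of the 10 in BM or in the interaction.

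Directions turned only for values without a call. Without replicate 3 of spleen sepsis, the BM over spleen values after sepsis became 0.11 for Jun and 0.039 for Nr4a1, and with 1 library left out they ranged from -1.74 to 0.11 and from -3.19 to 0.039. For sepsis over saline in BM, Junb became 0.061 without replicate 1 of BM saline (range -0.72 to 0.061), Egr1 became 0.26 (range -0.61 to 0.26) and Zfp36 0.070 (range -0.77 to 0.070) without replicate 2 of BM saline, and Zfp36 became 0.034 with limma-voom. Fos in spleen became -0.089 with RLE factors and with DESeq2, -0.0042 with the stricter filter, -0.34 with limma-voom, -0.00056 with the compared groups alone and -0.51 without replicate 3 of spleen sepsis (range -0.51 to 0.38). The cause of these changes was not tested.

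Library size alone shifted the median of all genes for BM over spleen by 0.509 on the log2 scale, from -0.13 to 0.38, and the median of the 10 genes moved from -1.88 to -1.41 with it. For libraries of equal replicate number, the correlation of deviations from the group means was -0.0566 to 0.0447 over 18 pairs. Many of these pairs join saline with sepsis, which cannot be the same mouse. Low correlations between libraries of 300 cells cannot show whether BM and spleen libraries shared mice. With the replicate block, 4, 1 and 1 of the 10 genes were called for the mean, after saline and after sepsis. Of all genes, 492, 158 and 250 were called lower in BM in the same order, and 463, 130 and 151 higher. With 3 libraries of 300 cells per group and a spread of 143%, the intervals of single genes span several-fold changes.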

Other observations

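A comparison of sepsis with saline over both tissues together was added after the values had been seen, because Dusp1 was lower after sepsis in each tissue. Its mean log2 fold change was -1.91 (SE 0.53, unadjusted p = 0.00176), with an adjusted p of 0.331 in edgeR over 20263 genes, of which 14 were called. All 3 spleen sepsis libraries were below all 3 spleen saline libraries, whereas in BM 1 of the sepsis libraries, at 20.7 CPM, was above the lowest saline library, at 17.9 CPM. Junb had -0.87 (SE 0.41, unadjusted p = 0.0484, adjusted p = 0.485) and Ier2 had -0.98 (SE 0.47, unadjusted p = 0.0517, adjusted p = 0.493) in the same comparison. None of the 10 genes was called in it.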
